A study of Mus musculus with 15 samples.

Results

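Troponin and tropomyosin are the calcium switch of the striated muscle thin filament, and their genes come as isoforms that mark cardiac, slow skeletal and fast skeletal muscle. Expression of 10 of these genes was followed through the conversion of mouse fibroblasts into cardiac cells: Tnnt1, Tnnt2 and Tnnt3 for troponin T, Tnni1, Tnni2 and Tnni3 for troponin I, Tnnc1 and Tnnc2 for troponin C, and the tropomyosins Tpm1 and Tpm2. The members were found by gene name in the deposited count table, where they fill 11 of 37991 rows, since Tnnc1 has 2 rows. Of the 11 rows, 8 held enough counts to be tested, 1 for each gene other than Tnnc1 and Tnnc2.

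The 15 RNA-seq libraries form 5 groups of 3, all labelled wild type and of a mixed C57BL/6 and 129J/SvE background. Secondary mouse embryonic fibroblasts (MEFs) were taken at passage 3. Fibroblasts of this kind are usually made from cells that already carry inducible reprogramming factors, although the labels list no transgene. Day 9 cultures were such fibroblasts after 6 days of reprogramming medium, 2 days of transdifferentiation medium and 1 day of ieCPC basal medium with BACS, a supplement named only so in the labels. The ieCPCs (induced expandable cardiovascular progenitors) came from a sort on day 13, were kept in the same basal medium with BACS and were sampled at passages 3 and 12. Cardiac derivatives, abbreviated CM in the labels, were ieCPCs after 25 days in serum-free differentiation medium. The passage of the ieCPCs they came from is not given in the labels. The labels do not say whether the ieCPC libraries came from 1 line or several, nor whether replicates were separate cultures. The p-values therefore measure the spread between these samples, pooled over the 5 groups.

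In striated muscle, tropomyosin lies along actin filaments and hides the sites that myosin binds. Troponin T ties the troponin complex to tropomyosin, troponin I holds the filament in its blocked state, and calcium binding to troponin C releases it. Tnnt2, Tnni3 and Tnnc1 encode the subunits of the adult heart, and Tnnc1 also serves slow skeletal muscle. Tnni1, the slow skeletal troponin I, is also the troponin I of the embryonic heart and gives way to Tnni3 as the heart matures. Tnnt1 is the slow and Tnnt3 the fast skeletal troponin T, Tnni2 is the fast skeletal troponin I, and Tnnc2 is the troponin C of fast skeletal muscle. Tpm1 and Tpm2 are spliced into muscle and non-muscle tropomyosins, so fibroblasts use these genes too. A count per gene cannot tell their splice forms apart.

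Library totals ran from 21823056 to 29996464 counts, and mitochondrial ribosomal RNA took 44.3 to 50.1% of counts in cardiac derivatives and 18.1 to 25.2% in the other libraries. Cardiac derivative replicate 3 stood apart from its fellows. The chi-square per degree of freedom between its counts and those of replicates 1 and 2 was 25.7 and 40.8, against 10.5 between those 2 libraries and 2.09 to 8.91 within the other groups. The tests below took 1 estimate of spread for each gene over all 5 groups. In comparisons with cardiac derivatives, the SEs and adjusted p-values can therefore understate the spread within that group. As a check of the label, all 11 cardiomyocyte markers reached 1 CPM (counts-per-million after TMM scaling of the library sizes) in the cardiac derivatives. Their summed level was 2.56 to 2.95 CPM in MEFs, 13.3 to 15.1 CPM in passage 3 ieCPCs and 2745 to 5399 CPM in cardiac derivatives. Fibroblast markers summed to 20417 to 23459 CPM in cardiac derivatives and 15423 to 16158 CPM in passage 3 ieCPCs. Macrophage markers summed to 160 to 211 CPM in cardiac derivatives, where 7 of 8 reached 1 CPM, and to 36.1 to 37.0 CPM in passage 3 ieCPCs, where C1qa, C1qb, C1qc and Emr1 had 0 counts. All 8 were called lower in day 9 cultures than in MEFs, where 27.4% of all tested genes were called lower. Their sums were 7.32 to 8.82 CPM in day 9 cultures and 292 to 310 CPM in MEFs. The part of these other cells in the results was not tested.

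The genes of 3 troponin pairs lie side by side, each pair holding a troponin I and a troponin T gene. On the mm9 build of the counts, Tnni1 (ENSMUSG00000026418, chr1:137679642-137707566, plus strand) precedes Tnnt2 (ENSMUSG00000026414, chr1:137737452-137748837, plus strand) by 29885 bases, with Lad1 between them. Tnnt1 (ENSMUSG00000064179, chr7:4456172-4467984, minus strand) and Tnni3 (ENSMUSG00000035458, chr7:4469907-4475831, minus strand) lie 1922 bases apart with no gene model between. At the other end of chromosome 7, Tnni2 (ENSMUSG00000031097, chr7:149627713-149630315, plus strand) and Tnnt3 (ENSMUSG00000061723, chr7:149684741-149701914, plus strand) are 54425 bases apart around Lsp1. Tpm1 (ENSMUSG00000032366) is at chr9:66870397-66897213 and Tpm2 (ENSMUSG00000028464) at chr4:43527583-43536637, both on the minus strand. The coordinates span whole gene models, exons, introns and untranslated regions together.

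Upstream sequence is shown for 4 genes: Tnnt2 and Tnni1, neighbours that both rose in passage 3 ieCPCs, Tnni3, which rose in cardiac derivatives, and Tpm1, which was abundant at every stage. Each line gives the 250 bases before the first RefSeq start site, 5′ to 3′ on the strand of the gene, from the GRCm38.p6 build, which is not the build of the counts. The regions are chr1:135836084-135836333 (plus strand) for Tnnt2, chr1:135799171-135799420 (plus) for Tnni1, chr7:4522529-4522778 (minus) for Tnni3 and chr9:67049214-67049463 (minus) for Tpm1. Capitals mark matches to the motifs searched.
Tnnt2: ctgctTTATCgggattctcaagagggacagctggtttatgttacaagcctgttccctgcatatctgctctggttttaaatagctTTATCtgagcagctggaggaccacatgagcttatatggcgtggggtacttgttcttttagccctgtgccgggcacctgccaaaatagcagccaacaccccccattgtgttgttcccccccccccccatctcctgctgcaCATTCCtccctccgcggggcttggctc
Tnni1: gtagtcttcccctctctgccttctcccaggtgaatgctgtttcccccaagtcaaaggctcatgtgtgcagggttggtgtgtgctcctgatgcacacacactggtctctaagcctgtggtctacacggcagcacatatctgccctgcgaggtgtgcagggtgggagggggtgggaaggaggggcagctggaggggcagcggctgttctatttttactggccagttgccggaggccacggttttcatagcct
Tnni3: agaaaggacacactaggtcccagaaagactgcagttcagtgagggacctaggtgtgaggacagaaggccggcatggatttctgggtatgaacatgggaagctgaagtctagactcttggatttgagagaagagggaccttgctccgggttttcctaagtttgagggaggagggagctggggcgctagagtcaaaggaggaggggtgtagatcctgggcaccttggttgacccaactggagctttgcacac
Tpm1: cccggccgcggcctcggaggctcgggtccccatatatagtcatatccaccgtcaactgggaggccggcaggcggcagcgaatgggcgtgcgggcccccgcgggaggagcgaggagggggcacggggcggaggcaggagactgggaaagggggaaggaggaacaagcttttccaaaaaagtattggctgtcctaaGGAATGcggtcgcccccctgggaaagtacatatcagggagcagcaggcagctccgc
The RefSeq table held 10 starts for 8 of the genes and no entry for Tnnt3 and Tnni2. All were searched on both strands for CATTCC (the M-CAT motif of TEAD factors), GATAA (GATA factors), TATAAA, the CArG box of serum response factor and the MEF2 site, and no matches overlapped. CATTCC was found in 3 of the 10 upstream windows, in Tnnt2 at 27 to 22 bases before the start and, as GGAATG, in Tnnc1 at 58 to 53 and in Tpm1 at 56 to 51 bases before it. Over all 32851 promoters of that length, 12.6% held the motif. GATAA was found in 1 window, that of Tnnt2, as TTATC at 245 to 241 and 166 to 162 bases before the start, beside 22.6% of all promoters. TATAAA was found in 1 window, at 30 to 25 bases before the Tnnt1 start, beside 12.4% of all promoters. The CArG box and the MEF2 site were found in 0 of the 10 windows, beside 1.47% and 2.92% of all promoters.

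Troponin T was barely detected in MEFs, and in cardiac derivatives it was nearly all Tnnt2. Tnnt2, the cardiac isoform, had 0.652, 0.641 and 0.878 CPM in the 3 MEF libraries, 0.799, 0.872 and 1.30 CPM in day 9 cultures, 36.1, 33.3 and 29.8 CPM in passage 3 ieCPCs, 7.07, 7.84 and 7.31 CPM in passage 12 ieCPCs, and 1926, 1384 and 2297 CPM in cardiac derivatives. The MEF and day 9 ranges overlapped, and each other stage stood apart from the rest. Per kilobase of exon, Tnnt2 ranked 16th, 21st and 16th among all rows in the cardiac derivative libraries. Tnnt2 rose 33.1-fold in passage 3 ieCPCs over day 9 cultures (log2 fold change 5.05 ± 0.21 SE, adjusted p = 8.97e-16, edgeR quasi-likelihood test with Benjamini-Hochberg adjustment, used throughout). In cardiac derivatives it was 56.6-fold higher than in passage 3 ieCPCs (5.82 ± 0.14, adjusted p = 6.00e-20 by edgeR). The difference between day 9 cultures and MEFs did not pass the test (0.44 ± 0.40, adjusted p = 0.368 by edgeR). In bulk libraries such as these, fewer cells of a type and less RNA per cell cannot be told apart.

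**Figure D1:**
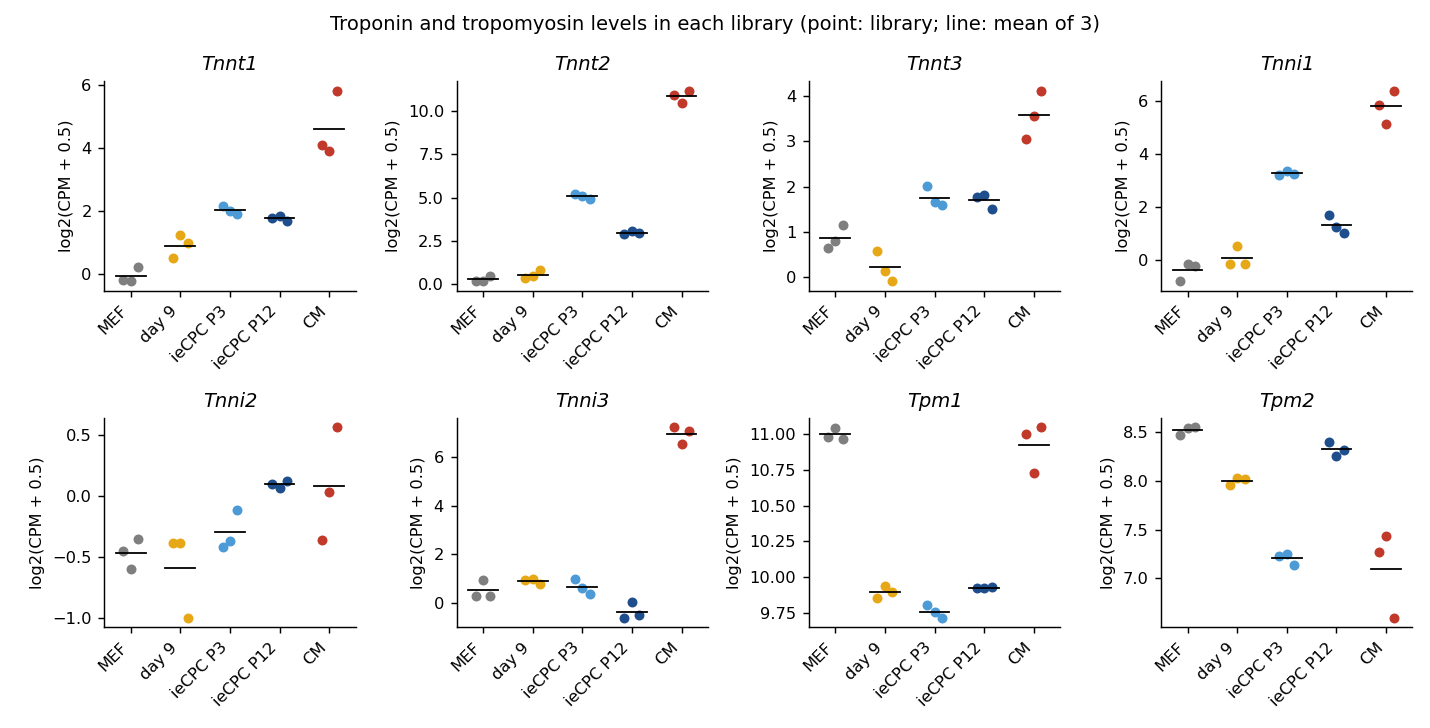
Level of each tested gene in every library as log2(CPM + 0.5), in 1 panel per gene, with stages in order from MEF to cardiac derivatives (CM). Points are libraries and the line is the mean of 3. Tnnt2 and Tnni1 are higher in passage 3 ieCPCs than in MEFs and day 9 cultures, and highest in CM. Tnni3 is highest in CM, and Tpm1 and Tpm2 start high.

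Per kilobase of exon, the skeletal troponin T genes lay below Tnnt2 in every ieCPC and cardiac derivative library. Tnnt1 had 0.384, 0.360 and 0.667 CPM in MEFs, 0.932, 1.86 and 1.47 CPM in day 9 cultures, 3.99, 3.52 and 3.29 CPM in passage 3 ieCPCs, 2.93, 3.11 and 2.71 CPM in passage 12 ieCPCs, and 16.9, 14.5 and 56.6 CPM in cardiac derivatives. No ranges overlapped between stages, and the high value of the last group was that of the library that stood apart. Tnnt1 rose in cardiac derivatives over passage 3 ieCPCs by 3.02 ± 0.35 on the log2 scale (adjusted p = 7.50e-08 by edgeR), and by 2.12 without cardiac derivative replicate 3. Its rise in passage 3 ieCPCs over day 9 cultures (1.35 ± 0.46, adjusted p = 0.0141 by edgeR) was lost with limma voom (adjusted p = 0.0735) and without day 9 replicate 1 (adjusted p = 0.0725). In day 9 cultures against MEFs it had a log2 fold change of 1.55 ± 0.68 that missed the threshold (adjusted p = 0.0557 by edgeR) and missed it with limma voom (adjusted p = 0.244) and RLE scaling (adjusted p = 0.0596). By edgeR it also missed with a stricter filter (adjusted p = 0.0566), without mitochondrially encoded genes (0.0609) and in every fit without 1 library (0.0516 to 0.173). It passed under DESeq2 (adjusted p = 0.00934), with the replicate block (adjusted p = 0.0244 by edgeR), with upper-quartile scaling (adjusted p = 0.0447), with only the 6 libraries compared and with no filter beyond 1 count.

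Tnnt3 was the troponin T gene that fell at day 9. It had 1.07, 1.24 and 1.72 CPM in MEFs, 0.999, 0.607 and 0.444 CPM in day 9 cultures, 3.56, 2.66 and 2.51 CPM in passage 3 ieCPCs, 2.93, 3.00 and 2.32 CPM in passage 12 ieCPCs, and 7.72, 11.2 and 16.8 CPM in cardiac derivatives. The ranges of the 2 ieCPC passages overlapped and those of the other stages did not. The fall in day 9 cultures against MEFs was 0.97 ± 0.36 on the log2 scale (log2 fold change -0.97, adjusted p = 0.0254 by edgeR). It was lost with limma voom (adjusted p = 0.0744) and without MEF replicate 3 (0.136), day 9 replicate 2 (0.0680) or day 9 replicate 3 (0.114). Tnnt3 rose in passage 3 ieCPCs over day 9 cultures by 2.07 ± 0.32 and in cardiac derivatives over passage 3 ieCPCs by 2.03 ± 0.23 on the log2 scale (adjusted p = 5.89e-06 and 6.43e-08 by edgeR).

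The troponin I genes rose at different steps, Tnni1 in passage 3 ieCPCs and Tnni3 in cardiac derivatives. Tnni1 had 0.0767, 0.400 and 0.351 CPM in MEFs, 0.400, 0.948 and 0.410 CPM in day 9 cultures, 8.83, 9.80 and 9.12 CPM in passage 3 ieCPCs, 2.74, 1.90 and 1.53 CPM in passage 12 ieCPCs, and 58.2, 35.1 and 84.5 CPM in cardiac derivatives. As for Tnnt2, the MEF and day 9 ranges overlapped and the other stages stood apart. Tnni1 rose 16.0-fold in passage 3 ieCPCs over day 9 cultures (log2 fold change 4.0 ± 0.36, adjusted p = 1.66e-09 by edgeR) and 6.39-fold in cardiac derivatives over passage 3 ieCPCs (2.67 ± 0.21, adjusted p = 1.72e-10 by edgeR).

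Tnni3, the adult cardiac isoform, did not share the step into ieCPCs. It had 0.729, 1.44 and 0.702 CPM in MEFs, 1.40, 1.48 and 1.20 CPM in day 9 cultures, 1.46, 1.04 and 0.778 CPM in passage 3 ieCPCs, 0.152, 0.513 and 0.196 CPM in passage 12 ieCPCs, and 150.0, 93.8 and 136 CPM in cardiac derivatives. The ranges of the first 3 stages overlapped, passage 12 ieCPCs lay below them and cardiac derivatives far above. Between passage 3 ieCPCs and day 9 cultures the log2 fold change of Tnni3 was -0.31 ± 0.34 (adjusted p = 0.446 by edgeR). In cardiac derivatives over passage 3 ieCPCs it rose 116-fold, 6.85 ± 0.20 on the log2 scale (adjusted p = 2.40e-18 by edgeR). Of the 1928 exon bases of Tnni3, 86 are shared with 6030429G01Rik on the same strand, so a small part of its reads is uncertain.

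Tnni2, the fast skeletal isoform, stayed at the edge of detection, with 0 to 16 counts a library. Its levels were 0.230, 0.160 and 0.281 CPM in MEFs, 0.266, 0.265 and 0 CPM in day 9 cultures, 0.249, 0.276 and 0.424 CPM in passage 3 ieCPCs, 0.570, 0.549 and 0.589 CPM in passage 12 ieCPCs, and 0.280, 0.524 and 0.979 CPM in cardiac derivatives. The 0 in day 9 replicate 3 allows up to 3 counts, a limit that covers counting error only. Tnni2 passed the test in cardiac derivatives against MEFs (log2 fold change 1.36 ± 0.57, adjusted p = 0.0383 by edgeR), although the ranges of these groups met at 0.280 and 0.281 CPM. That call was lost with limma voom (adjusted p = 0.0954) and in 5 of the 6 fits that left out 1 library (adjusted p = 0.0510 to 0.272).

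Troponin C could not be followed with these counts. The 2 rows named Tnnc1 describe the same exons of chromosome 14 on the plus strand. The shorter model (ENSMUSG00000021909, chr14:32021498-32024915) has 1041 exon bases, all of them inside the longer one (ENSMUSG00000091898, chr14:31983021-32024915), which adds only a 10-base exon far upstream. The shorter row held 0 counts in all 15 libraries. The longer row held 4, 2 and 3 counts in MEFs, 6, 2 and 4 in day 9 cultures, 0, 1 and 4 in passage 3 ieCPCs, 2, 3 and 5 in passage 12 ieCPCs, and 2, 0 and 0 in cardiac derivatives. The cardiac derivative libraries, with 2 counts in all, are those in which Tnnt2 and Tnni3 were at their highest. How reads over 2 models were counted was not given in the sources used here, so the rows give no level of Tnnc1.

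Tnnc2 (ENSMUSG00000017300, chr2:164602661-164605467, minus strand) shares 592 of its 800 exon bases, 74%, with the last exon of Ube2c, a cell cycle ubiquitin conjugase gene on the opposite strand. It held 1 count in passage 12 replicate 1, 1 count in cardiac derivative replicate 3 and 0 in the other libraries. Ube2c had 17.5 ± 5.82 CPM in cardiac derivatives and 46.8 ± 1.07 CPM in passage 3 ieCPCs (SD, n = 3 each). The strand setting of the counting was not given in the sources used here, and without strand the reads of the pair cannot be told apart.

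**Figure D2:**
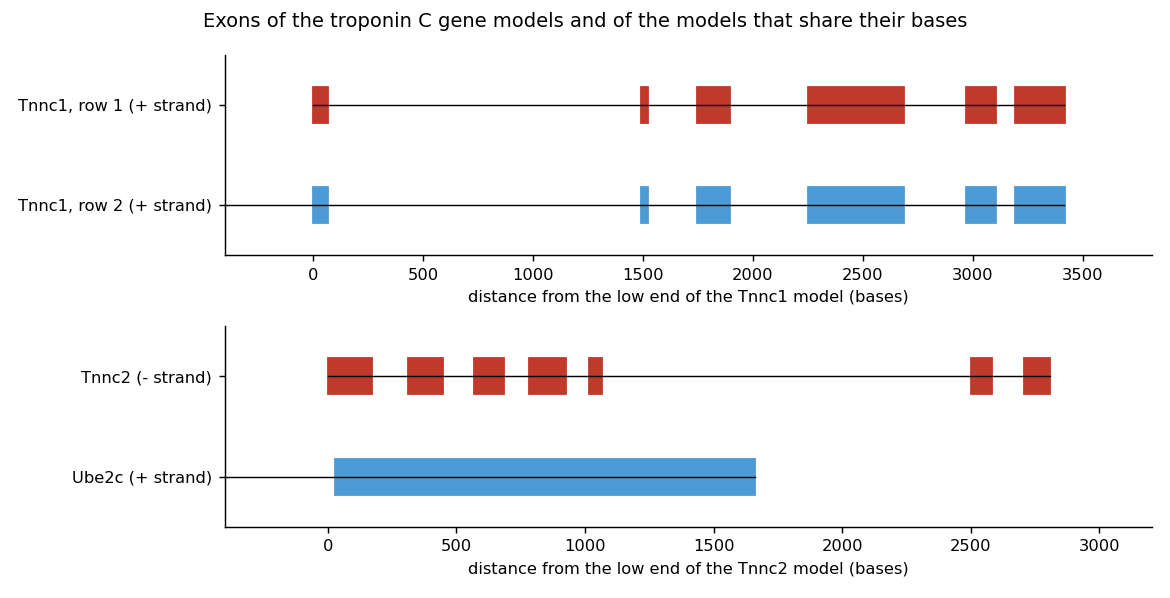
Exons of both Tnnc1 rows, and of Tnnc2 with Ube2c, drawn to scale by distance along the chromosome in the mm9 models. Every exon of the shorter Tnnc1 model lies within the longer one, and 74% of the Tnnc2 exon bases lie within the last exon of Ube2c.

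The tropomyosin genes were abundant in MEFs and fell in day 9 cultures. Tpm1 had 2019, 2108 and 1998 CPM in MEFs, 925, 981 and 953 CPM in day 9 cultures, 896, 867 and 843 CPM in passage 3 ieCPCs, 974, 971 and 977 CPM in passage 12 ieCPCs, and 2041, 1696 and 2112 CPM in cardiac derivatives. MEFs and cardiac derivatives overlapped at the top, and day 9 cultures overlapped with passage 12 ieCPCs below. Tpm1 fell in day 9 cultures against MEFs (log2 fold change -1.10 ± 0.066, adjusted p = 1.68e-12 by edgeR). It rose 2.24-fold in cardiac derivatives over passage 3 ieCPCs (1.17 ± 0.066, adjusted p = 3.18e-13 by edgeR). Cardiac derivatives against MEFs gave -0.067 ± 0.065 (adjusted p = 0.367 by edgeR), and -0.15 without cardiac derivative replicate 3, which passed (adjusted p = 0.0245).

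Tpm2 fell in day 9 cultures and again in passage 3 ieCPCs. It had 353, 371 and 373 CPM in MEFs, 247, 260.3 and 259 CPM in day 9 cultures, 149, 152 and 141 CPM in passage 3 ieCPCs, 336, 303 and 317 CPM in passage 12 ieCPCs, and 154, 172 and 96.5 CPM in cardiac derivatives. Passage 3 ieCPCs and cardiac derivatives overlapped, and the low value of 96.5 CPM was that of the library that stood apart. Tpm2 fell by 0.52 ± 0.11 in day 9 cultures against MEFs and by 0.79 ± 0.12 in passage 3 ieCPCs against day 9 cultures on the log2 scale (log2 fold changes -0.52 and -0.79, adjusted p = 0.000466 and 2.69e-06 by edgeR). In cardiac derivatives against passage 3 ieCPCs its log2 fold change was -0.062 ± 0.12 (adjusted p = 0.661 by edgeR). The sign and the call turned on single libraries: edgeR gave 0.14 without cardiac derivative replicate 3 (adjusted p = 0.0373) and -0.24 without cardiac derivative replicate 2 (adjusted p = 0.0445).

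The other tropomyosin genes, Tpm3 and Tpm4, encode mostly cytoskeletal forms in cells outside muscle. Tpm4 averaged 885 CPM in MEFs, 649.9 CPM in day 9 cultures, 432 CPM in passage 3 ieCPCs, 629 CPM in passage 12 ieCPCs and 557 CPM in cardiac derivatives. Tpm3 averaged 266 CPM in MEFs, 233 CPM in day 9 cultures, 272 CPM in passage 3 ieCPCs, 246 CPM in passage 12 ieCPCs and 156 CPM in cardiac derivatives. Tpm3 fell in cardiac derivatives against passage 3 ieCPCs (log2 fold change -0.80, adjusted p = 1.09e-10 by edgeR), where Tpm4 rose (0.37, adjusted p = 0.000126). Per kilobase of exon, Tpm1 made up 48.0% ± 6.59 of the sum of all 4 tropomyosin genes in cardiac derivatives and 31.5% ± 0.733 in passage 3 ieCPCs (SD, n = 3 each). Tpm2 made up 7.67% ± 1.95 of that sum in cardiac derivatives and 11.9% ± 0.153 in passage 3 ieCPCs.

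**Figure D3:**
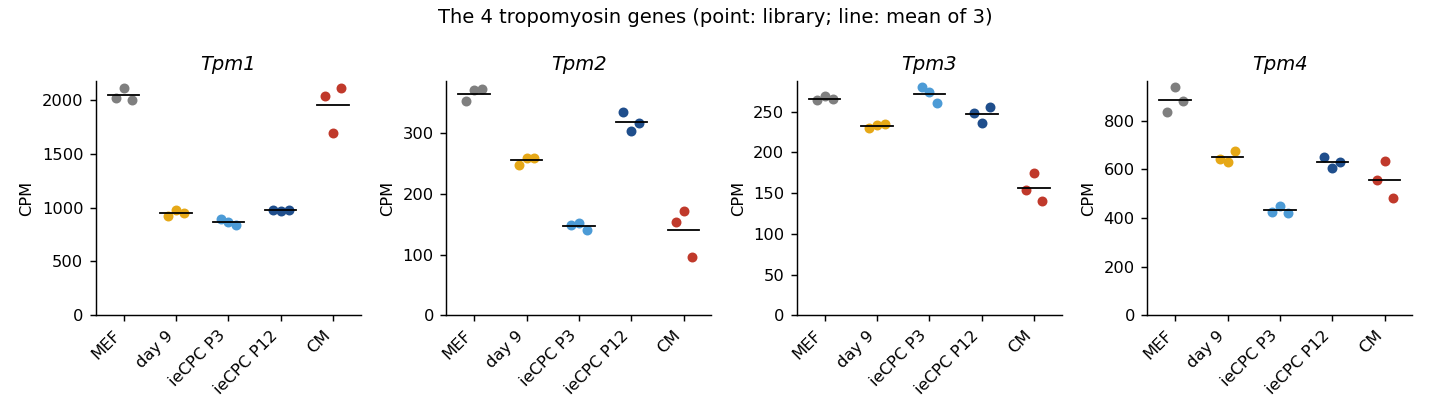
CPM of the 4 tropomyosin genes in every library, with stages in order from MEF to cardiac derivatives (CM). Points are libraries and the line is the mean of 3; Tpm1 overlaps between MEFs and CM and is lower at the stages between, while Tpm2 is highest in MEFs and passage 12 ieCPCs.

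Read as shares of a family per kilobase of exon, the leading troponin isoforms differed between stages, while Tpm1 led Tpm2 at every stage. Tnnt2 made up 35.3% ± 2.21 of troponin T in MEFs, 43.3% ± 9.23 in day 9 cultures, 88.7% ± 0.710 in passage 3 ieCPCs, 66.5% ± 2.31 in passage 12 ieCPCs and 98.7% ± 0.529 in cardiac derivatives (SD, n = 3 each). In MEFs Tnnt3 led, with 53.4% ± 2.17 of a small total. Troponin I was 68.6% ± 7.86 Tnni1 in passage 12 ieCPCs and 87.4% ± 2.24 Tnni1 in passage 3 ieCPCs. In cardiac derivatives Tnni1 made up 33.7% ± 6.39 and Tnni3 65.9% ± 6.50 of troponin I. The Tnni3 share was 69.4%, 69.9% and 58.4% in cardiac derivative replicates 1, 2 and 3, and 12.4%, 8.31% and 6.69% in those of passage 3 ieCPCs, so the groups did not overlap. Shares in MEFs and day 9 cultures rest on few counts, and Tnni3 made up 62.3% ± 10.5 of troponin I in day 9 cultures and 60.8% ± 11.1 in MEFs.

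**Figure D4:**
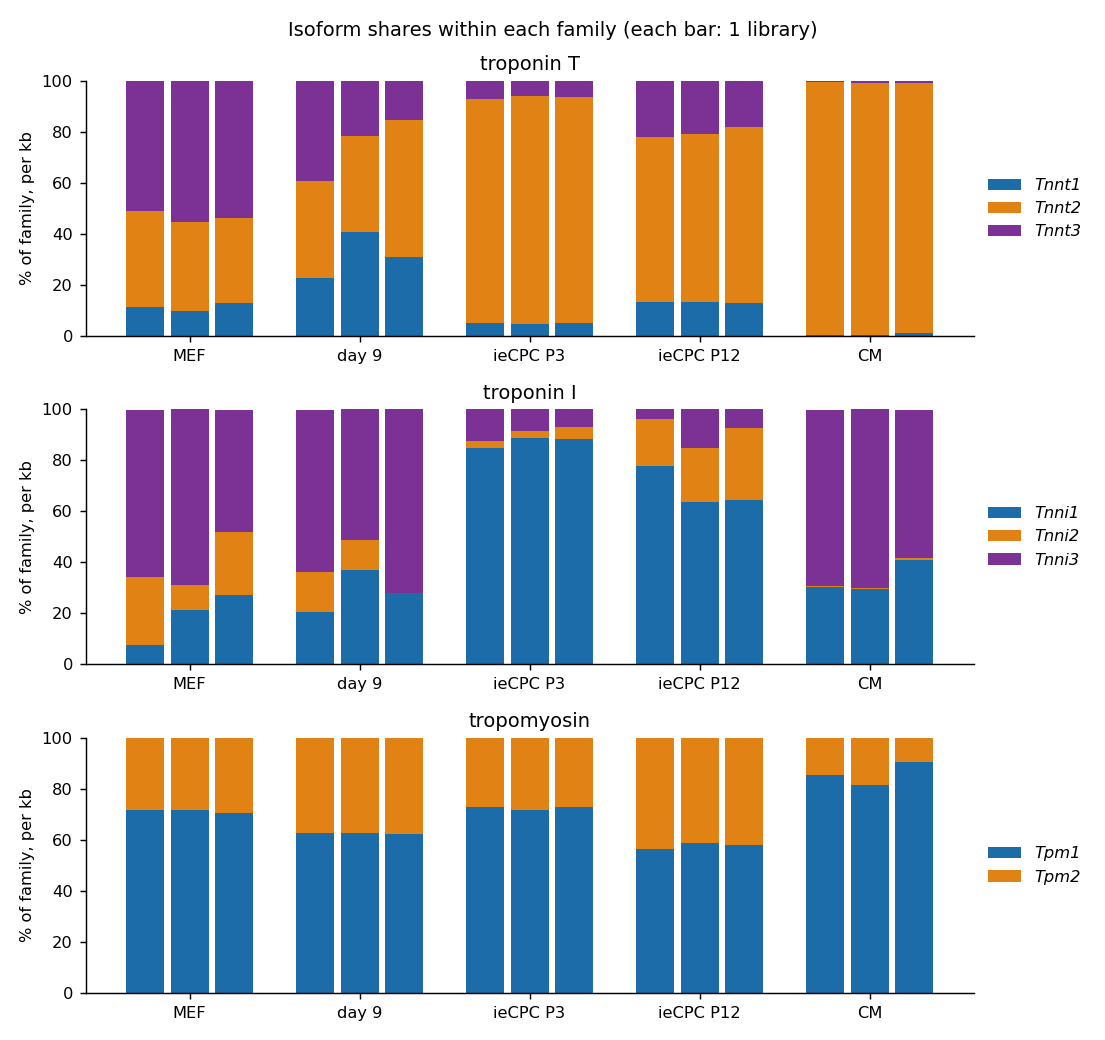
Share of each isoform in the per-kilobase sum of its family (percent), for troponin T, troponin I and the pair Tpm1 and Tpm2, in 1 bar per library from MEF to cardiac derivatives (CM). Tnnt2 fills nearly the whole bar in CM, and the leading troponin I is Tnni1 in ieCPCs and Tnni3 in CM.

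The families also differed in scale. The troponin T sum was 1712 ± 426.1 CPM per kilobase in cardiac derivatives and 33.7 ± 3.42 in passage 3 ieCPCs (SD, n = 3 each). The troponin I sum was 100.7 ± 27.3 CPM per kilobase in cardiac derivatives and 6.19 ± 0.232 in passage 3 ieCPCs. Troponin T thus exceeded troponin I 2.46 ± 0.833-fold in MEFs, 5.44 ± 0.569-fold in passage 3 ieCPCs and 17.1 ± 1.32-fold in cardiac derivatives. This ratio was 1.86 ± 0.594 in day 9 cultures and 5.94 ± 1.05 in passage 12 ieCPCs. The summed Tpm1 and Tpm2 level over that of troponin T was 244 ± 52.4 in MEFs, 5.51 ± 0.393 in passage 3 ieCPCs and 0.211 ± 0.0419 in cardiac derivatives. It was 114.6 ± 5.98 in day 9 cultures and, above passage 3, 25.9 ± 1.92 in passage 12 ieCPCs. The Tpm1 length of 6485 bases merges the exons of all its transcripts, so its per-kilobase level is an understatement where shorter transcripts prevail.

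By comparison, the 8 tested genes split as follows, read against the share of all 17999 tested genes called in each. In day 9 cultures against MEFs 0 genes rose and 3 fell (Tnnt3, Tpm1 and Tpm2), where 57.2% of all tested genes were called, 29.7% higher and 27.4% lower. In passage 3 ieCPCs against day 9 cultures 4 rose (Tnnt1, Tnnt2, Tnnt3 and Tnni1) and Tpm2 fell, where 60.7% were called, 28.4% higher and 32.3% lower. In passage 3 ieCPCs against MEFs these 4 rose too and both tropomyosins fell, where 65.8% were called, 33.3% higher and 32.5% lower. In cardiac derivatives against passage 3 ieCPCs 6 rose, all but Tnni2 and Tpm2, and 0 fell, where 63.1% were called, 31.9% higher and 31.2% lower. In cardiac derivatives against MEFs the 6 tested troponin genes rose and Tpm2 fell, where 70.6% were called, 35.9% higher and 34.7% lower. The log2 fold changes over MEFs, each with its SE, were 11.31 ± 0.20 for Tnnt2, 7.71 ± 0.36 for Tnni1, 7.06 ± 0.21 for Tnni3, 5.92 ± 0.48 for Tnnt1 and 3.13 ± 0.26 for Tnnt3, and Tnnt1 was at 5.01 without cardiac derivative replicate 3. Tpm2 stood at -1.37 ± 0.12 (adjusted p = 3.71e-10 by edgeR). The counts of called genes are a description, since the filter can keep a gene through its highest group alone. With so many genes called in each comparison, a call in itself is common, and the members differ more in the size of their folds. The median log2 fold change over all tested genes was -0.0098 in cardiac derivatives against passage 3 ieCPCs. All 6 calls in that comparison held without cardiac derivative replicate 3, with Tnnt2 at 5.64, Tnni3 at 6.79 and Tnni1 at 2.32 on the log2 scale. The comparisons share libraries, so their values are given side by side.

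**Figure D5:**
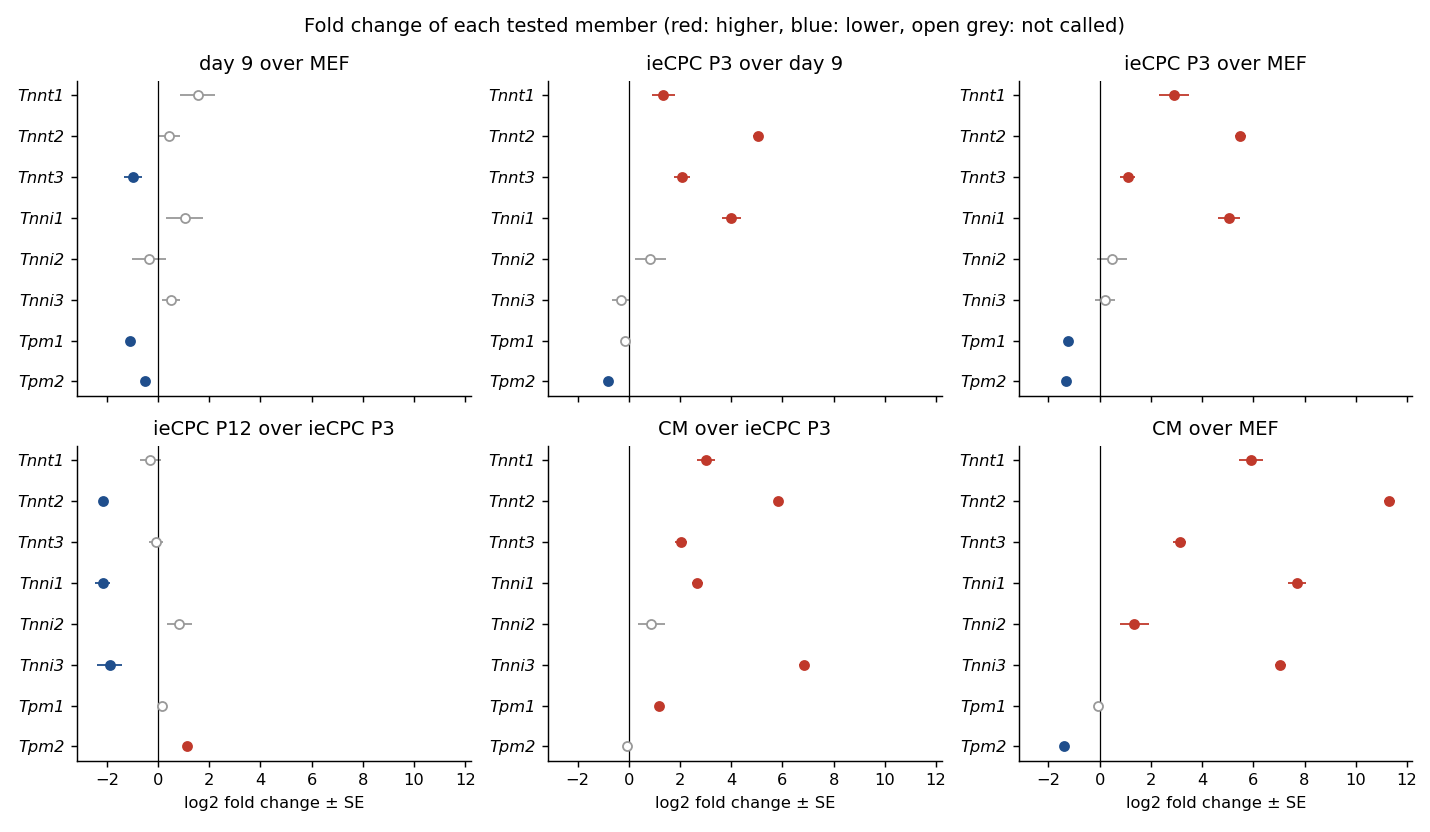
Log2 fold change with its SE for the 8 tested genes in 6 comparisons, each of the first-named group over the second. Red marks genes called higher, blue genes called lower and open grey genes not called at an adjusted p under 0.05; the longest step is that of Tnnt2 in cardiac derivatives (CM) over MEFs, 11.31 on the log2 scale.

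Between passages Tnnt2, Tnni1 and Tnni3 fell and Tpm2 rose. In passage 12 against passage 3 ieCPCs, 1 of the 8 tested genes rose and 3 fell, where 36.8% of all tested genes were called, 17.3% higher and 19.5% lower. Tnnt2 averaged 7.40 ± 0.391 CPM at passage 12 and 33.0 ± 3.18 CPM at passage 3 (SD, n = 3 each), a log2 fold change of -2.16 ± 0.15 (adjusted p = 4.80e-11 by edgeR). Tnni1 averaged 2.06 ± 0.618 CPM at passage 12 and 9.25 ± 0.496 CPM at passage 3, also -2.16 (± 0.29, adjusted p = 2.25e-06 by edgeR). Tnni3, already near 1 CPM at passage 3, fell (log2 fold change -1.89 ± 0.49, adjusted p = 0.0041 by edgeR), a call lost with limma voom (adjusted p = 0.0533). Its passage 12 level rests on 4, 14 and 5 counts. The log2 fold change was -1.59, -2.61 and -1.69 without passage 12 replicates 1, 2 and 3 in turn. Tnnt1 and Tnnt3 gave -0.30 ± 0.41 and -0.078 ± 0.26, and neither passed (adjusted p = 0.611 and 0.847 by edgeR). Tpm2 averaged 319 ± 16.2 CPM at passage 12 and 147 ± 5.87 CPM at passage 3, a rise of 1.11 ± 0.12 (adjusted p = 4.72e-08 by edgeR). Tpm1 just missed the threshold as fitted with all libraries (0.17 ± 0.065, adjusted p = 0.0504 by edgeR) and with the replicate block (adjusted p = 0.0570). It passed under DESeq2 (adjusted p = 0.0343), limma voom, RLE and upper-quartile scaling, both other filters, without mitochondrially encoded genes and with only the 6 libraries compared (adjusted p from 4.77e-05 to 0.0473), and missed in each fit without 1 library (from 0.0531 to 0.130). Over all tested genes 3122 were called higher and 3507 lower, and 3935 and 2752 with upper-quartile scaling, under which no member changed direction.

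Markers of muscle and fibroblasts moved between the same libraries. Of all tested genes, 17.3% were called higher and 19.5% lower in passage 12 against passage 3 ieCPCs. Smooth muscle markers summed to 3010 to 3224 CPM at passage 12 and 1604 to 1669 CPM at passage 3. Of these, 7 of 8 were called higher, and all 8 were at 1 CPM or more in both groups. Acta2, Actg2 and Lmod1 are also counted among the thin filament partners below. Skeletal muscle markers summed to 50.4 to 62.2 CPM at passage 12 and 11.2 to 11.7 CPM at passage 3. Of the 14 listed, 10 were tested, and 6 reached 1 CPM at passage 12 and 2 at passage 3. Of the 10 tested, 8 were called higher and Casq1 was called lower, a call lost with upper-quartile scaling. The filter can keep a gene through its passage 12 level alone, so these calls are a description. Among the skeletal muscle markers Myh3, the embryonic myosin heavy chain gene, had 15.6 ± 2.42 CPM at passage 12 and 0.951 ± 0.167 CPM at passage 3. Of the myogenic factors, Myf6 had 0 counts in both groups, while Myog and Myf5 had counts in both. Myod1 had 0.507 ± 0.0717 CPM at passage 12 and 0 counts at passage 3. Fibroblast markers summed to 18361 to 18883 CPM at passage 12 and 15423 to 16158 CPM at passage 3, with 7 of 9 called higher and 0 lower. Cardiomyocyte markers summed to 20.0 to 25.4 CPM at passage 12 and 13.3 to 15.1 CPM at passage 3. Of these 11 markers, 2 were called higher, near the share over all tested genes, and 1 lower. The smooth muscle sum was 3041 to 3096 CPM in MEFs, 1798 to 1941 CPM in day 9 cultures and 1065 to 1549 CPM in cardiac derivatives, and like Tpm2 it was highest in MEFs and passage 12 ieCPCs. The part of these cell types in the tropomyosin and troponin values was not tested.

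Of 16 thin filament partners (other tropomyosins, actins, tropomodulins, leiomodins, nebulins and caldesmon), 9 rose and 4 fell in cardiac derivatives against passage 3 ieCPCs, where 31.9% of all tested genes were called higher and 31.2% lower, with a median log2 fold change of 0.25 beside -0.0098 over all tested genes. Actc1, the cardiac actin, averaged 2268 ± 1032 CPM in cardiac derivatives and 9.00 ± 0.703 CPM in passage 3 ieCPCs (log2 fold change 7.98 ± 0.25, adjusted p = 5.30e-18 by edgeR). Nebl, which encodes the cardiac nebulin relative nebulette, had a log2 fold change of 7.44 ± 0.23 and Lmod3, a leiomodin that nucleates actin filaments, one of 7.31 ± 0.35. In passage 12 against passage 3 ieCPCs 11 partners rose and 1 fell, where 17.3% of all tested genes were called higher and 19.5% lower, with a median of 0.59 beside -0.0012. Actc1 was among those that rose (39.2 ± 4.97 CPM at passage 12), opposite in sign to Tnnt2 and Tnni1. In day 9 cultures against MEFs 5 partners were called higher and 5 lower, where 29.7% of all tested genes were higher and 27.4% lower. In passage 3 ieCPCs 5 were higher and 7 lower against day 9 cultures (28.4% and 32.3% of all), and 5 higher and 6 lower against MEFs (33.3% and 32.5%). In cardiac derivatives against MEFs 6 were higher and 7 lower (35.9% and 34.7%).

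Of 21 transcription and splicing regulators of muscle genes, 18 were tested. In cardiac derivatives against passage 3 ieCPCs 10 rose and 1 fell, beside the 31.9% higher and 31.2% lower over all tested genes, with a median of 0.33, and 10 rose and 3 fell of 19 without cardiac derivative replicate 3. Rbm24, a splicing factor of cardiac muscle, had 73.0 ± 24.8 CPM in cardiac derivatives and 5.41 ± 0.109 CPM in passage 3 ieCPCs (log2 fold change 3.75 ± 0.18, adjusted p = 1.05e-14 by edgeR). Myocd, the myocardin cofactor of serum response factor, had 30.8 ± 18.8 CPM in cardiac derivatives and 4.47 ± 0.407 CPM in passage 3 ieCPCs (2.78 ± 0.28, and 2.15 without cardiac derivative replicate 3). Nkx2-5, an early cardiac homeobox factor, had 2.29 ± 0.761 CPM in cardiac derivatives and 0.210 ± 0.123 CPM in passage 3 ieCPCs (3.40 ± 0.45). In passage 12 against passage 3 ieCPCs 2 regulators rose and 10 fell, beside 17.3% higher and 19.5% lower over all, with a median of -0.20, and 4 rose and 9 fell with upper-quartile scaling. Rbm24 fell there (log2 fold change -1.22, adjusted p = 0.000247 by edgeR), as did Nkx2-5 at under 1 CPM (-2.84, adjusted p = 0.0232). Myocd gave 0.28 and did not pass (adjusted p = 0.521 by edgeR). In day 9 cultures against MEFs 9 regulators were called higher and 4 lower, where 29.7% of all tested genes were higher and 27.4% lower. In passage 3 ieCPCs 11 were higher and 3 lower against day 9 cultures (28.4% and 32.3% of all), and 10 higher and 5 lower against MEFs (33.3% and 32.5%). In cardiac derivatives against MEFs 12 were higher and 3 lower (35.9% and 34.7%).

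The genes that lie between the paired troponins moved with them in some comparisons and against them in others. Lad1, between Tnni1 and Tnnt2, averaged 0.890 ± 0.103 CPM in passage 3 ieCPCs and 3.04 ± 0.415 CPM in day 9 cultures and fell there (log2 fold change -1.76, adjusted p = 2.38e-06 by edgeR), where both troponin genes rose. It rose with them in cardiac derivatives over passage 3 ieCPCs (0.76, adjusted p = 0.0261 by edgeR). Lsp1, between Tnni2 and Tnnt3, averaged 16.5 ± 1.41 CPM in passage 3 ieCPCs and 82.0 ± 2.95 CPM in MEFs, a log2 fold change of -2.31, where Tnnt3 rose by 1.10 ± 0.29 (adjusted p = 0.00178 by edgeR). Lsp1 rose in cardiac derivatives over passage 3 ieCPCs (0.89), as Tnnt3 did. Tnni2 passed in neither comparison, with 0.48 in passage 3 ieCPCs against MEFs and 0.88 in cardiac derivatives (adjusted p = 0.484 and 0.157 by edgeR). Within the pair Tnnt1 and Tnni3, Tnnt1 rose and Tnni3 did not pass the test in passage 3 ieCPCs against MEFs (2.90 ± 0.58 and 0.21 ± 0.38, adjusted p = 0.000126 and 0.646 by edgeR).

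As a description of pattern, Pearson's r of log2(CPM + 0.5) over the 15 libraries was computed between each member and the other tested genes with a name and a mean of at least 1 CPM in some group. The libraries fall into 5 groups, so each r mostly reflects the group means. Tnnt2 was most like Myom1, an M-band protein gene (r = 0.995), then Thbs4 and Pygm. Tnni1 was also most like Myom1 (r = 0.985), and Tnnt2 and Tnni1 had an r of 0.982 with each other. Tnni3 had its highest r with Cp and Cpeb3 (0.993 each), Tpm1 with Atp11a (0.990) and Tpm2 with Prkcdbp (0.970). These orders are near ties, with 20 genes (the first included) within 0.01 of the highest r for Tnni3, 12 for Tpm1, 11 for Tnnt2, 10 for Tnni1 and 4 for Tpm2. Tpm1 and Tpm2 had an r of 0.0449 with each other.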

How the data were processed

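RNA of 15 libraries in 5 groups of 3 was analysed from the deposited gene table. Per the submitters' processing notes, reads were aligned with TopHat2 2.0.13 to mm9 and counted with featureCounts of the Subread package; the annotation release, strand setting and treatment of reads over 2 models are not given in the sources used here. The raw counts are whole numbers as deposited. The authors' deposited CPM covers 17925 genes after their filter, and the troponin C rows have none; it was used only for checks. The deposited column of gene length gave values per kilobase, per the file headers. Columns headed FPKM were not used: 14 of 15 equal CPM over the preceding library's counts within a relative tolerance of 1e-06.

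The raw counts were filtered with filterByExpr (17999 genes kept), scaled by TMM and fitted by quasi-likelihood in edgeR 4.0.16 (R 4.3.3), all libraries together with 1 mean for each group. The 6 comparisons were contrasts, tested 2-sided with Benjamini-Hochberg adjustment, and called at an adjusted p under 0.05. CPM in the text is after TMM scaling, and SE is the log2 fold change over the square root of F. Bounds cover counting error only, and an exact permutation test of 3 against 3 cannot give a p below 0.1. Alternatives were DESeq2 1.42.0, limma 3.58.1 with voom, RLE and upper-quartile scaling, other filters, mitochondrial genes left out, fewer libraries and a replicate block.

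Members, gene lists and tests were chosen with earlier results of these data known. All members are named; of the partner list Tpm3, Tpm4 and the 3 called genes with the largest change in cardiac derivatives against passage 3 ieCPCs and at least 1 CPM are named, and regulators by a like rule. Chosen after values were seen were the marker Myh3, the neighbours Ube2c, Lad1 and Lsp1, the Tead1 row with more counts (135167 against 5), and leaving clone names out of the search for like genes.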

Additional observations from a re-analysis of the deposited data

How the results depend on the processing

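The 48 member results were recomputed in 709 further values: 671 kept direction and side of the threshold, 13 lost the call, 19 gained it and 6 reversed. The reversed ones came from leaving out 1 library, and none had passed the test in the full fit. They are Tnni2 in day 9 cultures against MEFs (-0.83 to 0.21, log2, over the fits without 1 library), Tnni3 in passage 3 ieCPCs against MEFs (-0.065 to 0.60), Tnnt3 in passage 12 against passage 3 ieCPCs (-0.16 to 0.10), Tpm2 in cardiac derivatives against passage 3 ieCPCs (-0.24 to 0.14) and Tpm1 in cardiac derivatives against MEFs (-0.15 to 0.0063). The cause was not tested. With no filter beyond 1 count, 6 members instead of 3 were called in day 9 cultures against MEFs, Tnnt1, Tnni1 and Tnni3 being added. That fit called 10851 of 28879 tested genes, and the full fit 10289 of 17999. Lengths matter for shares: without them Tnnt2 made up 97.9% of troponin T in cardiac derivatives and 83.6% in passage 3 ieCPCs, and Tpm1 made up 93.1% of its pair in cardiac derivatives and 85.5% in passage 3 ieCPCs. In day 9 cultures, on few counts, the mean leader of troponin T changed. It was Tnnt2 per kilobase (43.3%, Tnnt1 31.4%) and Tnnt1 without lengths (45.2%, Tnnt2 31.9%). Same-numbered libraries showed no shared deviation across all tested genes (r = -0.0568 to 0.0629). Genes with few counts weigh as much as others in this r, so it cannot exclude a weak pairing. With the replicate block, members called were 4 in day 9 cultures against MEFs, 5 in passage 3 ieCPCs against day 9 cultures, 6 in passage 3 ieCPCs against MEFs, 4 in passage 12 against passage 3 ieCPCs, 6 in cardiac derivatives against passage 3 ieCPCs and 7 in cardiac derivatives against MEFs. In the same order, 10218, 10910, 11790, 6571, 11276 and 12646 of all 17999 tested genes were called with the block. The single member call that the block moved was Tnnt1 in day 9 cultures against MEFs (adjusted p = 0.0244 by edgeR). The partner and regulator lists, tried under other scalings and without each cardiac derivative library after the data were seen, kept their total calls within 1.5 times. By direction, regulators called lower in cardiac derivatives against passage 3 ieCPCs were 3 without cardiac derivative replicate 3 and 1 with all libraries, and those called higher at passage 12 were 4 with upper-quartile scaling and 2 with TMM. Mean levels under 1 CPM limit Tnni2 at every stage, Tnnt1, Tnnt2, Tnni1 and Tnni3 in MEFs, Tnnt2, Tnnt3 and Tnni1 in day 9 cultures, and Tnni3 in passage 12 ieCPCs.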
